A study of Caenorhabditis elegans with 6 samples.

Results

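The lipid carrier genes *lbp-7*, *dsc-4* and *npa-1* were followed across *hlh-11* KO, *hlh-11* OE and wild-type N2 worms. They were chosen by function, as the genes of fatty acid binding and of lipoprotein lipid transfer, and are 3 of the 85 genes in the deposited table. Earlier results of these data were known when they were chosen. HLH-11 is a basic helix-loop-helix transcription factor, and the study used the 3 genotypes to ask how it bears on the genes of fat use. Polyadenylated RNA of whole worms was sequenced from 2 libraries per genotype, each of about 2000 synchronized young adults of the N2 background grown on *E. coli* OP50 at 20 °C. The KO allele is a CRISPR/Cas9 replacement within the second exon of *hlh-11* that shifts the reading frame in all of its transcripts. The sources used here do not name the transgene, promoter or copy number of the OE worms that were sequenced. The level of *hlh-11* itself was not analysed here, so the genotype labels were not checked on the RNA.

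Fatty acids and lipids dissolve poorly in water, so they move within and between cells bound to proteins. LBP-7 belongs to the intracellular fatty acid-binding proteins, small barrel-shaped proteins that hold a fatty acid in their cavity. DSC-4 is the worm form of the large subunit of microsomal triglyceride transfer protein, which loads lipid onto lipoproteins in the endoplasmic reticulum, and in worms these lipoproteins include the yolk proteins. NPA-1 is a polyprotein that is cut into small helix-rich units, and in the parasitic nematode *Ascaris* such units bind fatty acids and retinol in the body fluid.

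The table holds genes already selected on these libraries, since in all 85 the wild-type mean lies between the KO and OE means, 60 with a higher and 25 with a lower KO mean. The opposite directions of the 3 genes are therefore fixed by the selection and are given as a description. The values are RPKM, reads scaled by the length of the gene and by the total of the library. Whole reads recovered from the steps of these values gave library totals of 16538554 to 24023096 reads, and the table takes 1.46% to 2.44% of them. Differences were tested with limma on log2(RPKM + 0.5), where Benjamini-Hochberg adjustment covered the 85 genes and 0.05 was the threshold. Every log2 fold change is on that scale. No source says that the libraries came from separate cultures, so the p-values cover only the spread between these libraries, which may be technical. The genes were selected on these same libraries, so their sizes of change, calls and p-values are not independent of the selection. How far the selection raised them was not tested.

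*lbp-7* (WBGene00002259) spans bases 13879552 to 13880213 of chromosome V on the plus strand of WBcel235, with 1 annotated transcript of 2 exons. *dsc-4* (WBGene00001099) lies on chromosome IV from 315056 to 320544, on the minus strand, with 1 transcript of 11 exons. *npa-1* (WBGene00003786) lies on chromosome V from 7075787 to 7081580, on the plus strand, with 9 transcripts of 3 to 11 exons. *lbp-7* and *dsc-4* overlap no other annotated gene. The ends of *npa-1* overlap exons of the antisense gene *mys-1* by 36 bases and of the same-strand gene *F27B10.1* by 52 bases, which is 0.749% and 1.08% of its exon bases. Whether the counting used strand is not given, so reads in those bases cannot be assigned to 1 gene, and the levels of the 9 transcripts of *npa-1* cannot be told apart.

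*lbp-7* was high in KO and low in OE, with libraries of a genotype nearly equal. It was at 72.2 and 71.0 RPKM in the KO libraries, 19.1 and 18.3 RPKM in the OE libraries, and 34.2 and 35.5 RPKM in the wild-type libraries. The 3 genotypes did not overlap: the lower KO value was 2.0 times the higher wild-type value, and the lower wild-type value was 1.79 times the higher OE value. These levels rest on 654 and 701 reads in KO, 190 and 229 reads in OE, and 388 and 305 reads in the wild type. Within each genotype both values lay inside the other library's 95% exact Poisson interval, which covers counting error only. *lbp-7* rose in KO by 1.03 on the log2 scale, with a 95% limma interval of 0.72 to 1.34 (adjusted p = 1.16e-09 from limma). In OE it fell by 0.88 on the log2 scale (interval -1.19 to -0.57, adjusted p = 1.81e-07 from limma).

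*dsc-4* was higher in KO than in the wild type and lower in OE, and its OE libraries were apart. It was at 49.9 and 49.1 RPKM in the KO libraries, 17.7 and 24.1 RPKM in the OE libraries, and 35.1 and 36.0 RPKM in the wild-type libraries. The genotypes did not overlap, although the higher OE value was 1.36 times the lower one. With 965 and 1651 reads, the counting intervals of the OE libraries, 16.6 to 18.9 and 23.0 to 25.3 RPKM, did not touch. In KO and in the wild type, the libraries agree within sampling noise. The mean ratio of OE to wild type was 0.588 ± 0.128 and that of KO to wild type was 1.39 ± 0.0304 (SD from both groups, n = 2 each). *dsc-4* fell by 0.77 on the log2 scale in OE (interval -1.08 to -0.46, adjusted p = 4.64e-06 from limma), by 0.98 without OE replicate 2 and by 0.55 without OE replicate 1, and passed in both fits. In KO it rose by 0.47 (interval 0.16 to 0.78, adjusted p = 0.00384 from limma). The KO call was lost without wild type replicate 1 (adjusted p = 0.0633), without wild type replicate 2 (adjusted p = 0.05003, not under the threshold) and against the gene's own spread (adjusted p = 0.0797), all from limma fits. The own spread is taken over all 3 genotypes, so it includes the gap between the OE libraries. A limma fit of KO and wild type only gave an adjusted p of 0.00223. Under a scaling of each library by the median of its ratios over the table, the KO value turned to -0.087 (adjusted p = 0.494 from limma).

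*npa-1* was the most abundant of the 3 per length in every library and differed least between genotypes. It was at 144.2 and 133.7 RPKM in the KO libraries, 82.2 and 91.9 RPKM in the OE libraries, and 103.7 and 99.4 RPKM in the wild-type libraries. Both KO libraries were above both wild-type libraries and both OE libraries below them, but the lower wild-type value was only 1.08 times the higher OE value. The gene had 6966 to 11255 reads per library. At this depth the counting intervals of the 2 KO libraries did not overlap, nor did those of the 2 OE libraries. *npa-1* rose in KO by 0.45 on the log2 scale (interval 0.14 to 0.76, adjusted p = 0.00570 from limma), and this call was lost without KO replicate 1 (log2 fold change 0.40, adjusted p = 0.0735). Under the scaling by the median ratio it turned to -0.11 (adjusted p = 0.276 from limma). In OE its log2 fold change was -0.22, with an interval of -0.53 to 0.09, and did not pass (adjusted p = 0.164 from limma). Limma voom on the recovered reads, which weights genes by their depth, gave the same size and did pass (-0.22, adjusted p = 0.0243). As ratios of means, KO was at 1.37 ± 0.0836 and OE at 0.858 ± 0.0726 of the wild type (SD from both groups, n = 2 each).

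**Figure D1:**
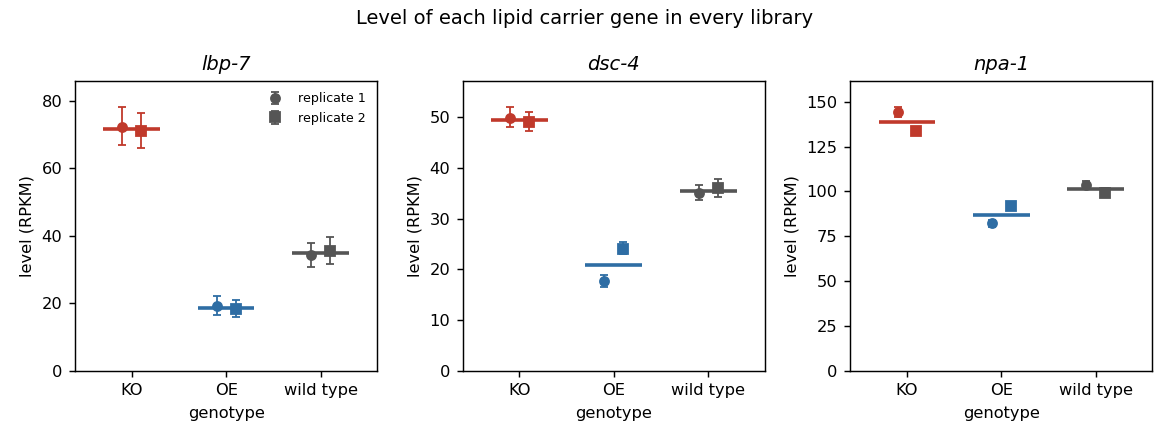
Level of each gene in RPKM (vertical axis, from 0) in every library of the KO, OE and wild-type genotypes. Points are libraries with 95% exact Poisson counting intervals and horizontal bars are group means; *lbp-7* separates the genotypes most widely, at 72.2 and 71.0 RPKM in KO, 19.1 and 18.3 RPKM in OE and 34.2 and 35.5 RPKM in the wild type, and the OE libraries of *dsc-4* stand apart at 17.7 and 24.1 RPKM.

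All 3 genes were called higher in KO, where 70.6% of the 85 genes were. In OE 2 of the 3, *lbp-7* and *dsc-4*, were called lower, where 60.0% of the table was. The median log2 fold change of the 3 genes was 0.47 in KO and -0.77 in OE, against 0.52 and -0.42 over all 85 genes and 0.77 and -0.58 over the 60 genes with a higher KO mean. The high shares are set by the selection of the table, and nothing about the 3 genes is read from them. By size of change in KO, *lbp-7* ranked 23 of 85, *dsc-4* 64 and *npa-1* 68. By size of change in OE they ranked 28, 34 and 82, so the change of *npa-1* in OE was among the smallest of the table. Both KO libraries lay above both wild-type libraries for 70.6% of the 85 genes and both OE libraries lay below them for 69.4%, and all 3 genes are among each of these. An exact two-sided permutation test of 2 libraries against 2 gave p = 0.333 for every gene and comparison, which is the smallest p this design allows.

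The distance between KO and OE was largest for *lbp-7* and smallest for *npa-1*. Its size does not use the wild-type libraries, but the pooled SD behind its limma intervals and p-values does. The mean KO level was 3.83 ± 0.122 times the OE level for *lbp-7*, 2.37 ± 0.513 times for *dsc-4* and 1.60 ± 0.152 times for *npa-1* (SD from both groups, n = 2 each). On the log2 scale *lbp-7* was 1.91 higher in KO than in OE (interval 1.60 to 2.22, adjusted p = 1.58e-26 from limma). *dsc-4* was 1.24 higher (interval 0.93 to 1.55, adjusted p = 1.55e-13 from limma). For *npa-1* the difference was 0.67 (interval 0.36 to 0.98, adjusted p = 2.80e-05 from limma). In a limma fit of the 2 genotypes only, the adjusted p was 2.26e-06 for *lbp-7*, 0.000141 for *dsc-4* and 0.00104 for *npa-1*. With each library scaled by the median of its ratios over the table in place of its total, *npa-1* was lower in KO than in OE, at -0.32 (adjusted p = 0.00964 from limma), and *dsc-4*, at 0.26, was not called (adjusted p = 0.0738 from limma). The 3 calls stand beside 70.6% of the table called higher in KO than in OE, and the selection for opposite changes favours this comparison.

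**Figure D2:**
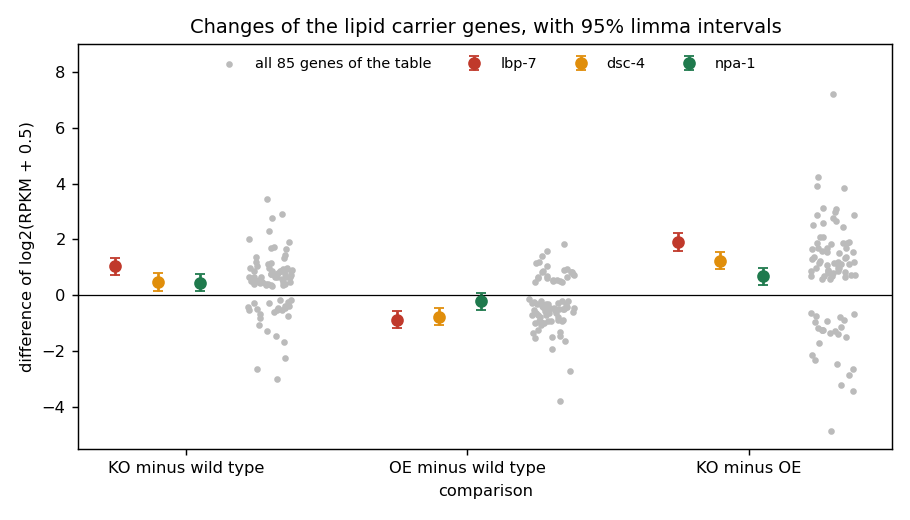
Difference of log2(RPKM + 0.5) (vertical axis) for KO minus wild type, OE minus wild type and KO minus OE, with coloured points and 95% limma intervals for the 3 genes and grey points for all 85 genes of the table. *lbp-7* is farthest from 0 of the 3 in each comparison, and the interval of *npa-1* in OE, -0.53 to 0.09, spans 0.

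Whether a gene moved further in KO or in OE was tested as the sum of its log2 fold changes, which is 0 for changes of equal size and opposite sign. The sum was 0.15 for *lbp-7* (interval -0.38 to 0.69), -0.29 for *dsc-4* (interval -0.83 to 0.24) and 0.23 for *npa-1* (interval -0.31 to 0.76). None of the 3 passed (adjusted p = 0.888, 0.722 and 0.820 in that order, from limma), while 11.8% of the table did. No unadjusted p of the 3 was under 0.05, the lowest being 0.280 for *dsc-4* from limma. The intervals are wide, so sums of up to about 0.7 in size are within them for each gene, and equal changes are not shown.

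The spread between libraries of a genotype differed among the 3 genes. The residual SD on the log2 scale, with 3 residual degrees of freedom, was 0.03 for *lbp-7*, 0.18 for *dsc-4* and 0.08 for *npa-1*, beside a median of 0.12 over the 85 genes. That of *lbp-7* was the smallest of the 85 and lay under the 0.080 that counting error alone gives at its reads, so a p resting on it is not used. The limma model gave all genes the pooled SD of 0.16, which is wider than the own spread of *lbp-7* and *npa-1* and narrower than that of *dsc-4*. Against its own spread, *npa-1* passed in KO and not in OE (adjusted p = 0.0255 and 0.0780 from the limma fit without empirical Bayes).

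Because RPKM is per length, the 3 levels can be set against each other within a library. *lbp-7* and *dsc-4* stood at nearly the same level in the wild type and apart in KO. The ratio of *lbp-7* to *dsc-4* was 1.45 in both KO libraries, 1.08 and 0.761 in the OE libraries, and 0.975 and 0.985 in the wild-type libraries. *npa-1* was 2.0 and 1.88 times as high as *lbp-7* in the KO libraries, 4.30 and 5.02 times in the OE libraries, and 3.03 and 2.80 times in the wild-type libraries. How many other gene pairs of the table separate the genotypes in this way was not counted, so nothing is read from the separation. The ratio of *npa-1* to *dsc-4* was 2.89 and 2.72 in the KO libraries, 4.64 and 3.81 in the OE libraries, and 2.96 and 2.76 in the wild-type libraries, so that KO and wild type overlapped and OE was above both. These ratios do not depend on the library total, and they are given as descriptions with no test. The 3 levels together came to 260.05 ± 8.88 RPKM in KO, 126.7 ± 10.9 RPKM in OE and 171.9 ± 1.47 RPKM in wild-type worms (SD, n = 2 each). *lbp-7* made up 27.1% and 28% of that sum in KO, 16.1% and 13.6% in OE, and 19.8% and 20.8% in the wild type.

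**Figure D3:**
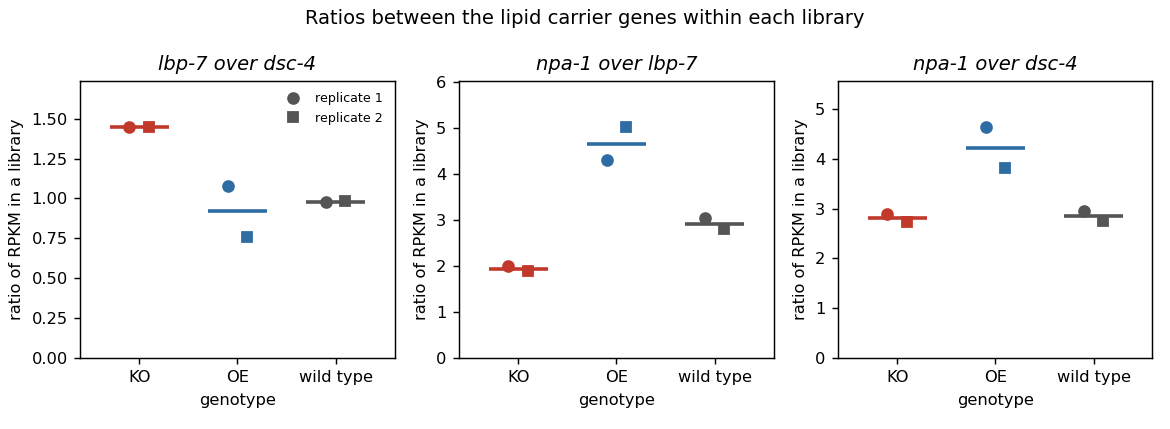
Ratio of the RPKM of 2 genes within each library (vertical axis, from 0) for *lbp-7* over *dsc-4*, *npa-1* over *lbp-7* and *npa-1* over *dsc-4*, by genotype; points are libraries and bars are group means. The ratio of *lbp-7* to *dsc-4* is 1.45 in both KO libraries and 0.975 and 0.985 in the wild type, and the ratio of *npa-1* to *lbp-7* is highest in OE, at 4.30 and 5.02.

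The zero point of the changes rests on the library totals. Scaling each library by the median of its ratios over the 85 genes instead puts the median gene of the table at about 0, and so moves the table by -0.56 in KO and 0.43 in OE on the log2 scale. Under it *lbp-7* kept both calls, at 0.47 in KO (adjusted p = 0.00925 from limma) and -0.45 in OE (adjusted p = 0.0105 from limma). *dsc-4* kept its OE call at -0.34 (adjusted p = 0.0376 from limma) but its KO value, -0.087, missed the threshold (adjusted p = 0.494 from limma). *npa-1* turned direction, at -0.11 in KO and 0.21 in OE, where neither passed (adjusted p = 0.276 and 0.0685 from limma). Under this scaling, then, *lbp-7* stood away from the median of the selected table in both genotypes, and *dsc-4* in OE. That median mixes genes with a higher and with a lower KO mean. Without the scaling, the 60 genes with a higher KO mean had medians of 0.77 in KO and -0.58 in OE, beside 1.03 and -0.88 for *lbp-7*. This scaling assumes that the median gene does not change, and the genes of this table were chosen because they did.

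**Figure D4:**
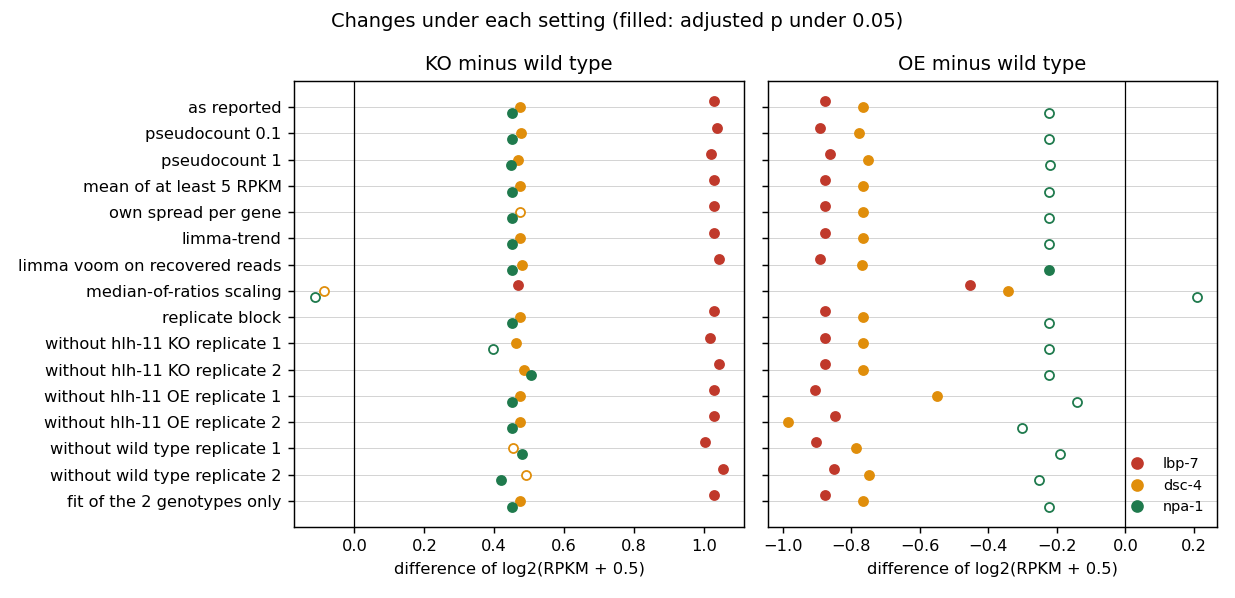
Difference of log2(RPKM + 0.5) (horizontal axis) of the 3 genes for KO minus wild type (left) and OE minus wild type (right), under the reported setting and each alternative (rows); filled points have an adjusted p under 0.05 and open points do not. *lbp-7* is filled in every row, and under median-of-ratios scaling *dsc-4* in KO, at -0.087, and *npa-1* in both panels, at -0.11 and 0.21, lie on the other side of 0.

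The table holds 3 of the 129 genes on fixed lists of fat metabolism. Of 19 genes of fatty acid binding and lipid carriage on a fixed list, *lbp-7* and *npa-1* are in the table. Of 14 genes of lipoprotein assembly, yolk proteins and their receptors, *dsc-4* is. None of 16 genes of lipases and lipid droplets, 49 of beta-oxidation, 18 of fat synthesis or 13 regulators of fat metabolism is, so their levels were not analysed here. Their absence does not show that they were unchanged. The sources used here do not give the full rule by which the genes of the table were selected, and opposite directions need not be all of it. From its full sequencing data, the paper reports several lipase genes higher in KO and lower in OE, and beta-oxidation genes higher in KO. It also reports the vitellogenin genes, which encode the yolk proteins, lower in KO, and holds that more yolk formation there is unlikely. Most fat synthesis genes were unchanged in both genotypes in the paper, while *fat-7* was lower in KO. The proteins of *lbp-7*, *dsc-4* and *npa-1* belong to families that bind or hand over fatty acids or triglyceride. None of these 3 genes encodes an enzyme that breaks fat down.

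The genes of the table with profiles most like each of the 3 were found by the Euclidean distance between log2 profiles over the 6 libraries, each centred on its wild-type mean. For *lbp-7* they were *F49C12.7*, the major sperm protein gene *msp-3* and the galectin gene *lec-9*, at distances of 0.273 to 0.371 beside a median of 1.15 over the other 84 genes. For *dsc-4* they were the solute carrier gene *slc-17.6*, the glucuronosyltransferase gene *ugt-50* and the galectin gene *lec-10*, at 0.311 to 0.446 beside a median of 0.887. For *npa-1* they were *gas-1*, which encodes a subunit of mitochondrial complex I, the ABC transporter gene *haf-9* and the calreticulin gene *crt-1*, at 0.137 to 0.191 beside a median of 1.29. The 3 lipid carrier genes were not among each other's nearest: *dsc-4* ranked 24 and *npa-1* 48 of 84 from *lbp-7*, and *npa-1* ranked 35 from *dsc-4*.

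RNA of whole worms does not tell fewer cells of a type from less RNA per cell. The tissue marker genes in the table were, in sum, highest in KO and lowest in OE, as the 3 genes were. The selection of the table favours this pattern, as 70.6% of its 85 genes were called higher in KO than in the wild type. The intestinal actin gene *act-5*, the single intestinal marker of a fixed list in the table, was at 767 to 774 RPKM in KO, 465 to 521 RPKM in OE and 596 to 613 RPKM in the wild type. The 7 collagen genes, which mark the hypodermis, summed to 8018 to 8673 RPKM in KO, 4268 to 4567 RPKM in OE and 5404 to 6025 RPKM in the wild type. The 6 sperm genes, most of them near-identical copies among which reads may be shared, summed to 1288 to 1328 RPKM in KO, 417 to 489 RPKM in OE and 636 to 806 RPKM in the wild type. No marker of oocytes, muscle or neurons on the list is in the table, and no marker that is in it is at 0. The part of these tissues, and of developmental stage, in the levels of *lbp-7*, *dsc-4* and *npa-1* was not tested.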

How the data were processed

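Polyadenylated RNA of 2 libraries per genotype was sequenced on an Illumina instrument. Per the labels and the paper's methods, reads were checked with FastQC 0.11.5, aligned to WBcel235 with TopHat2 and tested with DESeq2; the sources used here give neither the read counter nor the strand setting. The authors deposited RPKM values, 1 column per library, for 85 genes, all matched to symbols. Library totals and reads were recovered from the RPKM steps: the total taken was the one that the largest number of genes, 4 to 6 of 85 per library, allowed at an annotated exon length, and all 510 values were then whole reads within 1e-06. The recovered lengths of *lbp-7*, *dsc-4* and *npa-1* were 1.006, 1.012 and 0.923 times their annotated exon bases, none of them equal, and their reads rest on these lengths. Each was set to the multiple of the shortest fitting length that lay nearest the annotated one. Their nearness is therefore no check of the reads. The recovery and the limma fit were tested on simulated data. Limma 3.58.1 in R 4.3.3 (lmFit, eBayes with a constant prior, two-sided) was applied to all 6 libraries on log2(RPKM + 0.5) with no filter. Its prior had infinite degrees of freedom, and each gene received the pooled SD of 0.16 and a standard error of 0.16, or 0.27 for the sum contrast. The alternatives were pseudocounts of 0.1 and 1, a mean of at least 5 RPKM, 2 genotypes only, each gene's own spread, limma-trend, voom on recovered reads, median-of-ratios scaling, the replicate number as a block and each library left out. The genes and lists were chosen with earlier results of these data known. Beside the 3 genes, the rule names the 3 nearest profiles of each and list members in the table. *act-5*, *mys-1* and *F27B10.1* were named as a marker and as overlapping genes. The planned promoter motif search was not run, as no sequence was used here.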

Additional observations from a re-analysis of the deposited data

How the results depend on the processing

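*lbp-7* kept its direction and its call in KO and in OE under all 15 alternatives, with log2 fold changes of 0.47 to 1.06 in KO and -0.91 to -0.45 in OE; the alternative with its own spread is no support, as that spread lies under counting error. With libraries left out in turn, the KO log2 fold changes were 1.004 to 1.06 for *lbp-7*, 0.45 to 0.49 for *dsc-4* and 0.40 to 0.50 for *npa-1*. The KO call of *dsc-4* was lost without either wild-type library and against its own spread (0.47, adjusted p = 0.0797), and that of *npa-1* without KO replicate 1. The OE log2 fold change of *dsc-4* was -0.98 to -0.55 with libraries left out. It passed against the gene's own spread (adjusted p = 0.0354 from the limma fit without empirical Bayes) and under median-of-ratios scaling (-0.34, adjusted p = 0.0376 from limma). The OE value of *npa-1* was -0.30 to -0.14 with libraries left out and passed with voom on recovered reads (-0.22, adjusted p = 0.0243 from limma). Median-of-ratios scaling turned *dsc-4* in KO to -0.087 and *npa-1* to -0.11 in KO, 0.21 in OE and -0.32 between KO and OE (adjusted p = 0.00964 from limma for the last), and brought *dsc-4* between KO and OE to 0.26 (adjusted p = 0.0738 from limma). By construction this scaling puts the median of the selected table near 0. Under it 24 genes were higher in KO than in the wild type and 25 lower, against 60 and 20; 25 were higher in OE and 20 lower, against 25 and 51; and 33 were higher in KO than in OE and 33 lower, against 60 and 25. With libraries left out, 10 to 22 genes were lower in KO, the fewest without KO replicate 1. The sums of the KO and OE changes passed under none of their 13 alternatives.

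The replicate numbers mark no shared culture in the labels, and same-numbered libraries did not deviate together (r = -0.14 for KO with wild type, -0.11 for OE with wild type and -0.13 for KO with OE, across genes). With the replicate number as a block, no call of the 3 genes changed; *dsc-4* in KO was at 0.47 (adjusted p = 0.00924 from limma). Where a genotype had 1 library left, that library was assumed to vary like the others. Depth limits *lbp-7* most, with 190 to 701 reads per library.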
